A study of Gallus gallus with 9 samples.

Results

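Genes of DNA replication and mitosis were followed across 9 livers of growing broilers, as a list of 40 genes that serve as markers of dividing cells. A gene was matched to the array by its single gene symbol in the platform annotation and was represented by its brightest probe set over all 9 birds. A total of 35 of the 40 genes had a probe set under their own symbol, and 33 of these were tested, out of 10382 genes tested on the array. MCM4, MCM7, CDC6, CCNB2 and AURKA had no probe set under their symbol here. CENPF, a kinetochore protein of late G2, and ECT2, which activates RhoA for cleavage, were measured but fell below the filter on low signals, a mean over all 9 birds equal to a signal of 64.7.

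A dividing cell loads the MCM helicase onto origins in G1, fires it in S phase, and copies DNA with the sliding clamp PCNA while ribonucleotide reductase and thymidylate synthase supply nucleotides. Cyclin-dependent kinases drive each step, condensins pack the chromosomes, the kinetochore and the spindle checkpoint govern their separation, and a central spindle of kinesins and their partners sets the cleavage plane. Transcripts of these genes are produced mostly in S, G2 and M phase, so in a whole tissue they are widely used as a measure of how many cells are cycling. In the liver, hepatocytes divide while the animal grows, and division becomes rare in the adult organ, where blood and immune cells passing through can also carry these transcripts.

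The Se-yeast group held 5 ROSS308 broilers, a commercial meat chicken, whose standard feed carried selenized yeast (Sel-Plex) at 0.5 mg of added selenium per kg. The control group held 4 ROSS308 broilers on the standard diet with no added selenium, and a further control sample had been left out by the submitters for its quality, per the series' design text. Both groups ate freely for 35 days and were 35 days old. The treated diet differed from the control diet in yeast as well as in selenium, and the effects of the 2 cannot be told apart. The labels name no sex, batch or scan date.

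Each bird gave 1 array of bulk liver RNA, and array medians lay between 100.8 and 125.1 signal units. HINTW, a gene of the female-specific W chromosome, had a signal of 16428 in Se-yeast replicate 1 and of 6.14 to 19.5 in the other 8 birds. Se-yeast replicate 1 therefore stands apart, and the counts below are given without it where they move by more than 1.5 times. Passing the filter does not identify the tissue, since 12 of 12 matched macrophage markers passed it too. Of 12 matched hepatocyte markers, 11 passed the filter. Their summed signal was 463388 to 688098 in Se-yeast birds and 379463 to 459171 in control birds. The diets did not overlap in that sum. They did overlap in the average log2 level of these markers, each taken relative to its mean over all birds. That level ran from -0.09 to 0.45 in Se-yeast birds and from -0.30 to -0.05 in control birds. In bulk tissue, fewer cells of a type and less RNA per cell cannot be told apart.

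No gene of replication or mitosis passed the test for a difference between the diets. Of all 23063 probe sets tested, 6 were called, or 0.0260%, and 0 of the 33 member genes were (limma, Benjamini-Hochberg over all probe sets). The smallest adjusted p of a member was 0.999, and the count of called members was also 0 without an intensity trend in limma. At an unadjusted p under 0.05, a much weaker criterion, 7 of 33 members (21.2%) fell below the threshold, where 5.05% of all genes did. That count was 4 without an intensity trend, where 444 of all 10382 genes fell below the threshold. With single birds left out it was 2 when control replicate 2 was dropped and 3 for control replicate 3 and for Se-yeast replicate 4. It was 4 for control replicates 1 and 4 and for Se-yeast replicate 1, and 5 to 7 for each of the remaining birds. Over all genes, 524 fell below the threshold with all birds and 376 to 576 with single birds left out. Without control replicate 2 the share of members was 6.06%, beside 476 of all genes. It was 9.09% without control replicate 3, beside 490, and without Se-yeast replicate 4, beside 511. The 7 genes were MCM3, TYMS, BUB1, SMC2 and SMC4, with lower signal in Se-yeast birds, and NCAPG and KIF20A, with higher signal in Se-yeast birds.

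**Figure D1:**
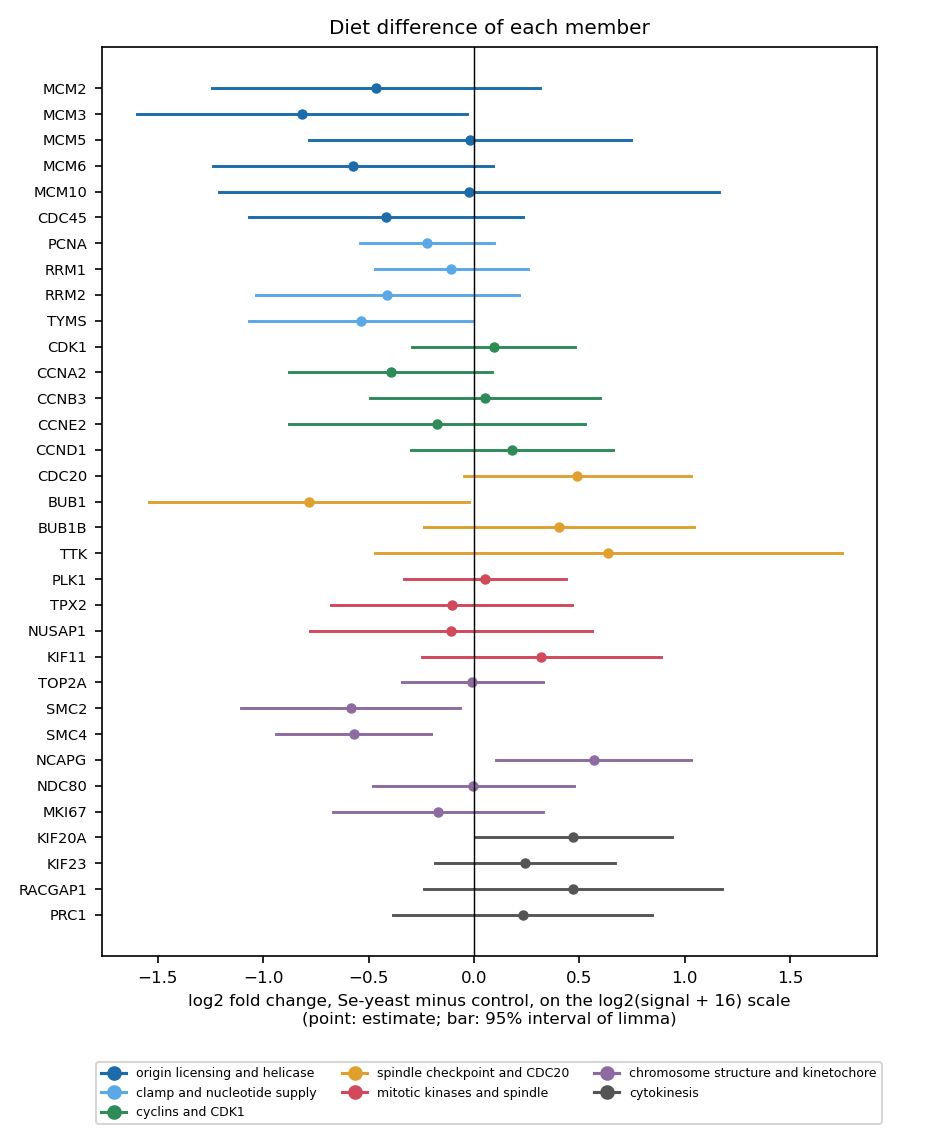
Diet difference of the 33 members tested, as the log2 fold change of Se-yeast over control on the log2(signal + 16) scale, with points for the estimate and bars for its 95% interval from limma. The 10 replication genes at the top all lie below 0, the 4 cytokinesis genes at the bottom all lie above 0, and no member passed the adjusted test.

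The direction of these shifts, none of which passed the adjusted test, differed between roles. The median log2 fold change was -0.02 over the 33 members and 0.02 over all genes. All 10 genes of origin licensing, helicase, clamp and nucleotide supply were on the lower side in Se-yeast birds, with a median of -0.41. Of all genes, 47% were on the lower side. Within the 10, MCM5 and MCM10 were each at -0.02. All 4 cytokinesis genes were on the higher side, with a median of 0.36, and the 18 genes of checkpoint, spindle, chromosome structure and cytokinesis together had a median of 0.14, with 10 above 0, and a median of 0.02 without Se-yeast replicate 2. Quantile normalisation and median centring kept 10 of 10 replication genes below 0 and 4 of 4 cytokinesis genes above 0. With median centring, 58.5% of all genes were below 0. The replication count was 9 of 10 with a pseudocount of 1, with the replicate number as a block and with HINTW as a covariate. It was also 9 of 10 without control replicate 1 or 4, or without Se-yeast replicate 1, 3 or 5. The replication count was 8 of 10, with a median of -0.18, when Se-yeast replicate 4 was dropped, and 8 of 10, with a median of -0.28, when control replicate 3 was. It was 7 of 10, with a median of -0.19, without Se-yeast replicates 4 and 5 (a setting chosen after the values were seen). Of the hepatocyte markers, 10 of 11 were also on the higher side in Se-yeast birds, with a median log2 fold change of 0.26 and 0 called, and 11 of 12 macrophage markers were, with a median of 0.18 and 0 called. Their part in the shifts of the member genes was not tested.

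**Figure D2:**
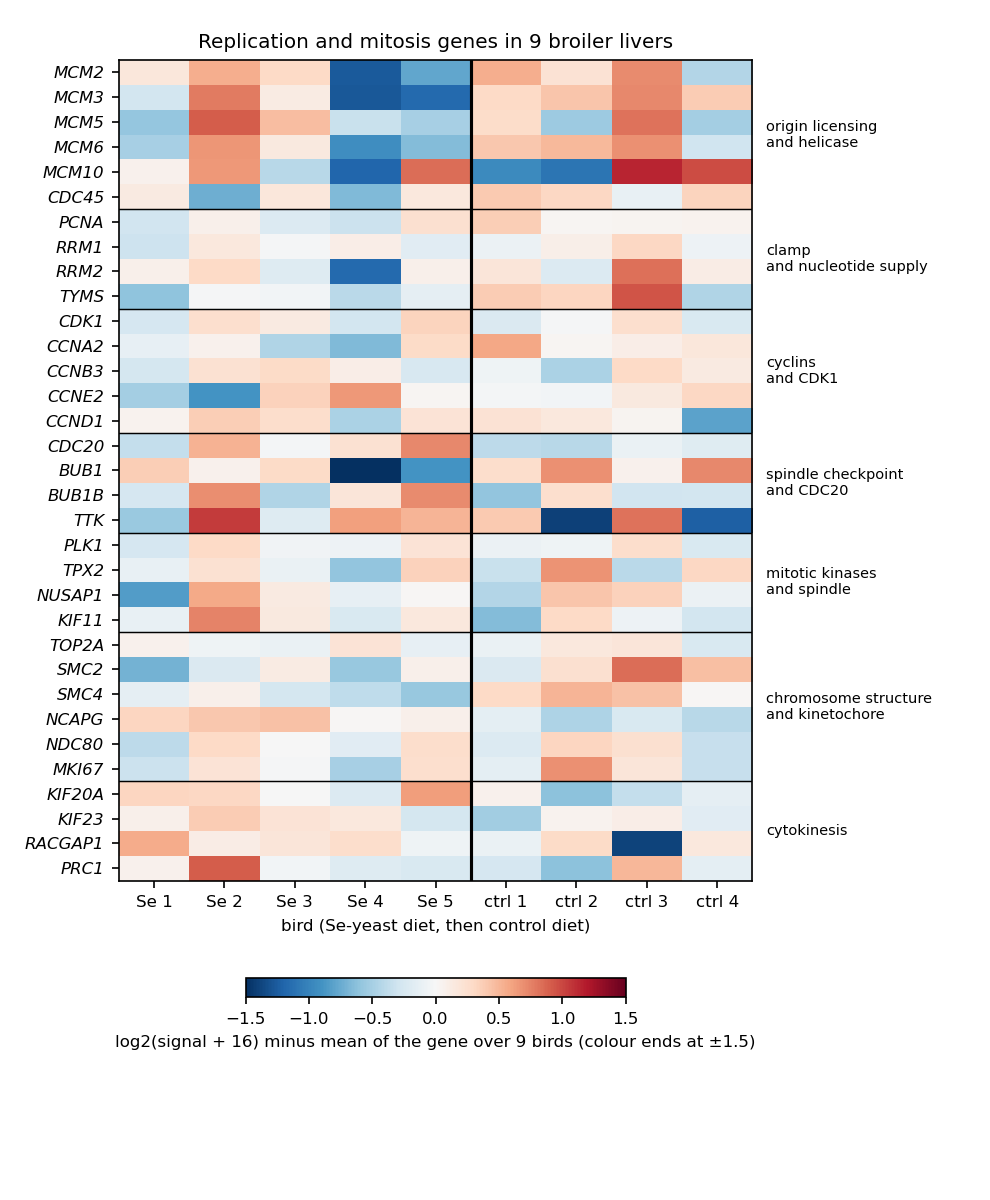
Level of each of the 33 members in each bird, as log2(signal + 16) minus the mean of that gene over the 9 birds, with the 5 Se-yeast birds left of the 4 control birds and genes ordered by role. Se-yeast replicate 4 is blue over most replication genes, where it is the lowest bird for 6 of 10, and control replicate 3 is red there, where it is the highest for 6 of 10.

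MCM2, MCM3, MCM5 and MCM6 encode subunits of the hexameric MCM helicase, which unwinds DNA ahead of the fork. MCM2 had signals of 647, 845, 711, 229.7 and 327 in Se-yeast replicates 1 to 5, against 847, 670.3, 946 and 420.3 in control replicates 1 to 4. MCM3 had signals of 254, 541, 338, 119 and 129 in Se-yeast birds, against 385, 418, 521 and 408 in control birds. For both genes Se-yeast replicates 4 and 5 were the lowest of the 9 birds, and the other Se-yeast birds overlapped with the controls. The log2 fold change of MCM2 was -0.47 (adjusted p = 0.999, limma) and turned to 0.08 without Se-yeast replicates 4 and 5. The log2 fold change of MCM3 was -0.82 (95% interval -1.60 to -0.04, unadjusted p = 0.0418, adjusted p = 0.999 in limma), and it was -0.25 without Se-yeast replicates 4 and 5.

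MCM5 had signals of 328, 955, 693, 395 and 349 in Se-yeast birds, against 611, 337, 892 and 346 in control birds. MCM6 had signals of 436, 989, 690.3, 318 and 391 in Se-yeast birds, against 825, 876, 1011 and 504 in control birds. Se-yeast replicate 2 and control replicate 3 were the 2 highest birds for both genes, so that each diet supplied a high bird. The log2 fold change was -0.02 for MCM5 and -0.57 for MCM6, each with an adjusted p of 0.999 (limma).

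**Figure D3:**
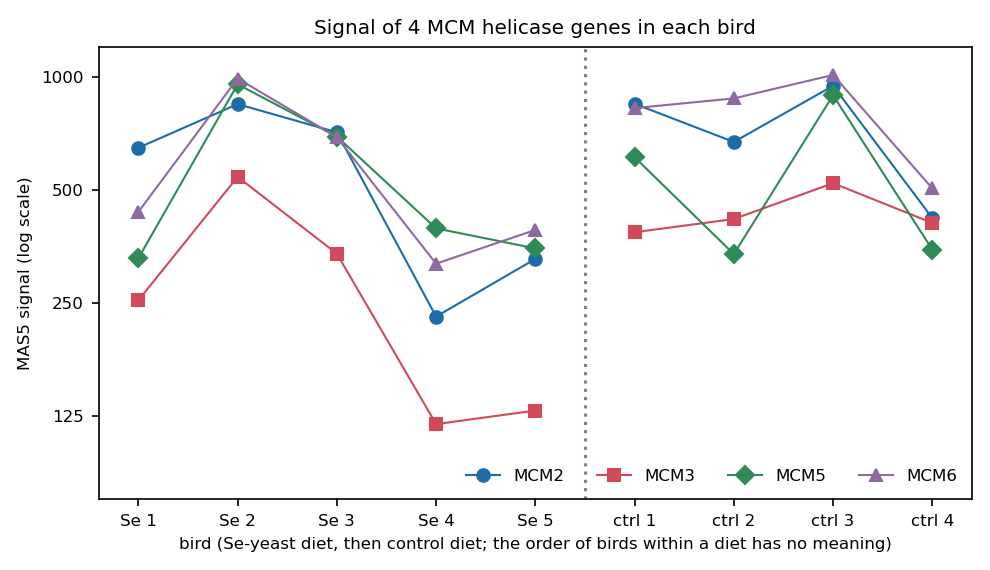
MAS5 signal of MCM2, MCM3, MCM5 and MCM6 on a log axis in each bird, with Se-yeast birds left of the dotted line and control birds right of it; lines join the points of a gene only to guide the eye. The 4 curves move together, high in Se-yeast replicate 2 and control replicate 3 and low in Se-yeast replicates 4 and 5, while MCM5 is lowest in Se-yeast replicate 1 and control replicates 2 and 4.

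The 4 helicase subunits, each by its brightest probe set, moved together closely from bird to bird. Averaged over the 4 genes, the log2 level relative to each gene's mean over the 9 birds was -0.30, 0.72, 0.26, -0.95 and -0.77 in Se-yeast replicates 1 to 5 and 0.38, 0.14, 0.73 and -0.22 in control replicates 1 to 4. With the diet means taken out, their 6 pairwise Pearson correlations over 9 birds ran from 0.69 for MCM2 with MCM5 to 0.89 for MCM2 with MCM6, with a median of 0.84. The median ran from 0.72 to 0.86 when each bird was left out in turn and was 0.79 without Se-yeast replicates 4 and 5. It was 0.72 when all probe sets of a gene were averaged. The next probe set of MCM6 had 435.5 and 410.3 in Se-yeast replicates 4 and 5, against 393 to 563 in control birds. Its lowest signal was 245.5, in Se-yeast replicate 1. By r among 10381 genes, the other subunits ranked 48 to 625 for MCM2 and 177 to 842 for MCM3. They ranked 81 to 390 for MCM5 and 46 to 157 for MCM6, so genes outside the list came closer to each. All these correlations are descriptions, since the genes share the same 9 arrays and their scaling. MCM2, MCM3 and MCM5 also varied more between birds of the same diet than 92.6% to 93.1% of all genes did, with a pooled SD within diets of 0.66 to 0.67 on the log2 scale, and MCM6 more than 88.2% did, with 0.562, while the median was 0.401 over the members and 0.298 over all genes.

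The 2 further replication factors did not follow the helicase subunits closely. MCM10, which helps activate the loaded helicase, had signals of 97, 155, 65, 31.7 and 177 in Se-yeast birds, against 39.7, 34.5, 222 and 197 in control birds. Its lowest signals were dim and its spread exceeded that of 98.8% of all genes, with birds of both diets at either end. CDC45, part of the active helicase, had signals of 93.1, 43.6, 95.4, 46.5 and 94.7 in Se-yeast birds, against 114, 107, 75.9 and 109 in control birds. Se-yeast replicates 2 and 4 were its lowest birds, and its median correlation with the other 32 members was -0.24.

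PCNA, the sliding clamp that holds polymerases on DNA, varied little between birds. It had signals of 3765, 4874, 4002, 3688 and 5436 in Se-yeast birds, against 5976, 4711, 4736 and 4769.5 in control birds. Control replicate 1 was the highest, apart from the other 3 controls, which lay within a narrow range that 2 Se-yeast birds exceeded. The log2 fold change was -0.22 with all birds and -0.14 without control replicate 1. The highest bird exceeded the lowest 1.62-fold for PCNA.

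By their brightest probe sets, the enzymes of nucleotide supply differed in how much they varied. RRM2, the subunit of ribonucleotide reductase made in S phase, had signals of 631, 741, 524, 259 and 632 in Se-yeast birds, against 682, 518, 1078 and 649 in control birds. Se-yeast replicate 4 was the lowest and control replicate 3 the highest, a 4.16-fold span, while the other birds of both diets overlapped. RRM1, the partner subunit that is present throughout the cycle, ranged from 257 to 360.1 in Se-yeast birds and from 303 to 403 in control birds. Its span was 1.57-fold, and the diet groups overlapped. The next probe set of RRM1 varied more, from 125.7 to 332 in Se-yeast birds and from 246 to 516 in control birds. The contrast with RRM2 therefore depends on the probe set.

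TYMS, thymidylate synthase, makes the thymidine nucleotide needed for DNA. It had signals of 337, 514, 503, 389 and 470.4 in Se-yeast birds, against 681, 652, 1008 and 376 in control birds. Control replicates 1 to 3 lay above every Se-yeast bird, and control replicate 4 lay near the bottom. The log2 fold change was -0.54 (95% interval -1.07 to -0.01, unadjusted p = 0.0473, adjusted p = 0.999 in limma).

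CDK1, the kinase that starts mitosis, had signals of 564, 810.1, 746, 557 and 859.8 in Se-yeast birds, against 578, 668, 810.0 and 576 in control birds. High and low birds occurred in both diets, and the log2 fold change was 0.09 (adjusted p = 0.999, limma). CCNA2, its S and G2 phase cyclin, had signals of 214, 245, 167, 142 and 287 in Se-yeast birds, against 356, 238, 252 and 265 in control birds. Its log2 fold change was -0.40 (adjusted p = 0.999, limma) and the groups overlapped. CCNB1, the main mitotic cyclin, is not in the list, but RefSeq's GRCg7b gene table gives CCNB2 as a synonym of it. The probe set of CCNB1 had signals of 479.9, 478, 532, 362 and 584 in Se-yeast birds, against 739, 600.4, 518 and 625 in control birds, with a log2 fold change of -0.35 (adjusted p = 0.999, limma).

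The remaining cyclins differed in how they followed CDK1, with correlations over 9 birds of 0.57 for CCND1, 0.21 for CCNB3 and -0.23 for CCNE2, where CCNA2 had 0.34 (diet means taken out). CCNB3, a cyclin of meiosis and mitosis, ranged from 86.1 to 134 in Se-yeast birds and from 72.2 to 134 in control birds. CCNE2, which acts with CDK2 at the entry to S phase, had signals of 63.3, 44.9, 127, 162 and 99.4 in Se-yeast birds, against 95.2, 93.9, 109 and 125 in control birds. It ran against most of the list, with a negative correlation to 26 of the 32 other members and its highest signal in Se-yeast replicate 4. CCND1, the growth factor responsive cyclin of G1 that is abundant in resting tissues too, had signals of 8098, 10083, 9354, 5609 and 9007 in Se-yeast birds, against 9053, 8707, 8053 and 4458 in control birds. Its lowest birds were control replicate 4 and Se-yeast replicate 4, and its closest member was MCM6 (r = 0.78 over 9 birds, diet means taken out). These correlations of CCND1 are those of its brightest probe set. The next probe set, which correlated with it at 0.76, had only 4037 in Se-yeast replicate 2, the highest bird of the brightest one.

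By their brightest probe sets, the spindle checkpoint genes split into 3 with higher and 1 with lower signal in Se-yeast birds. CDC20, the activator of the anaphase promoting complex that the checkpoint holds back, had signals of 107, 209, 138, 169 and 243 in Se-yeast birds, against 103, 102, 131 and 122 in control birds. Of the Se-yeast birds, 4 lay above every control bird and replicate 1 lay among them, with a log2 fold change of 0.49 (95% interval -0.05 to 1.03, adjusted p = 0.999 in limma). BUB1B, the checkpoint kinase homologue BubR1 that binds CDC20, had signals of 109, 225, 93.4, 153 and 228 in Se-yeast birds, against 83.1, 162, 106 and 107 in control birds. The groups overlapped, and the log2 fold change was 0.40 (adjusted p = 0.999, limma). The next probe set of BUB1B had a log2 fold change of 0.01 and correlated with the brightest one at 0.02. The values of BUB1B therefore depend on the probe set.

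TTK, the kinase MPS1 that starts checkpoint signalling, had signals of 39.1, 151, 54.7, 108 and 99.1 in Se-yeast birds, against 90.1, 14.7, 127 and 18.6 in control birds. Control replicates 2 and 4 were dim for TTK, and the highest over lowest signal was 10.2-fold. BUB1, a checkpoint kinase of the kinetochore, had signals of 5344, 4331, 5049.9, 1394 and 2214 in Se-yeast birds, against 4980.2, 6690.4, 4317 and 6833 in control birds. Se-yeast replicates 4 and 5 were far below the other 7 birds. Its log2 fold change was -0.78 (95% interval -1.54 to -0.02, unadjusted p = 0.0442, adjusted p = 0.999 in limma) and it was -0.20 without those 2 birds.

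BUB1 did not move with the other checkpoint genes. The median of the 6 pairwise correlations among CDC20, BUB1, BUB1B and TTK was -0.07, against 0.71 for CDC20 with BUB1B alone. The next probe set of BUB1 gave the same order of birds to a close degree (r = 0.97), and both end in _s_at. A further probe set of BUB1 was below the filter, at 5.76 to 31.85 in Se-yeast birds and 7.26 to 22.87 in control birds. In RefSeq's GRCg7b table a long non-coding RNA gene, LOC121110243, overlaps BUB1, and which of the overlapping transcripts the probes read was not tested.

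With the diet means taken out, the kinase and spindle genes had the highest median correlation of any role. PLK1, a mitotic kinase, had signals of 259, 388, 300.5, 296 and 362 in Se-yeast birds, against 292, 298, 379.6 and 265 in control birds. NUSAP1, which bundles spindle microtubules, had signals of 53.6, 169, 121, 98.1 and 109.7 in Se-yeast birds, against 76.1, 149, 142 and 101 in control birds. Both were highest in Se-yeast replicate 2 and lowest in Se-yeast replicate 1, with log2 fold changes of 0.05 for PLK1 and -0.11 for NUSAP1 (adjusted p = 0.999 for each, limma).

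KIF11, the kinesin that pushes spindle poles apart, had signals of 134, 257, 164, 123 and 166 in Se-yeast birds, against 87.7, 184, 138 and 118 in control birds. TPX2, which targets Aurora A to the spindle, had signals of 225, 288, 227, 156 and 313 in Se-yeast birds, against 189.9, 398, 180.3 and 305 in control birds. The groups overlapped for both. The 6 correlations among PLK1, TPX2, NUSAP1 and KIF11 were all positive, from 0.06 for PLK1 with TPX2 to 0.84 for NUSAP1 with KIF11. Their median was 0.63, and it lay between 0.49 and 0.69 with each bird left out. The median was 0.44 when all probe sets of a gene were averaged, 0.57 with HINTW as a covariate, 0.33 with MBD2 as a covariate, and -0.12 with the replicate number as a block, although the numbers were not found to pair the birds. MBD2 was taken as the brightest probe set of a gene annotated to the W chromosome, but it had a signal of 2022 to 2628 in the 8 birds with almost no HINTW signal and 3183 in Se-yeast replicate 1, so it did not mark the W chromosome here.

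SMC2 and SMC4 form the core of condensin, which compacts chromosomes, and NCAPG is a further subunit of condensin I. SMC2 had signals of 265, 378, 484, 294 and 469.7 in Se-yeast birds, against 380.0, 525, 803 and 610.0 in control birds. SMC4 had signals of 583, 677, 534, 491 and 427 in Se-yeast birds, against 797, 919.9, 877 and 649.5 in control birds. For SMC2, 3 controls lay above every Se-yeast bird, and for SMC4, 3 controls did and control replicate 4 lay below 1 Se-yeast bird only. SMC2 is annotated to the Z chromosome, and its lowest signal was in Se-yeast replicate 1, the bird with HINTW signal. The part of sex in that value was not tested. NCAPG had signals of 152, 163, 166, 121 and 127 in Se-yeast birds, against 106, 81.5, 98.7 and 85.4 in control birds, and every Se-yeast bird lay above every control bird.

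The condensin genes therefore pointed in opposite directions. The log2 fold change was -0.58 for SMC2 (unadjusted p = 0.0302), -0.57 for SMC4 (95% interval -0.94 to -0.20, unadjusted p = 0.00516) and 0.57 for NCAPG (95% interval 0.11 to 1.03, unadjusted p = 0.0198), each with an adjusted p of 0.999 in limma. NCAPG was the only member of 33 whose diet groups did not overlap, and 1.84% of all genes showed this. Under all the alternatives tried, SMC2 stayed between -0.76 and -0.42, SMC4 between -0.67 and -0.42 and NCAPG between 0.42 and 0.70. With the diet means taken out, NCAPG still correlated with MCM2 at 0.90.

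TOP2A, the topoisomerase that untangles chromosomes and a common proliferation marker, was among the flattest members by its brightest probe set. It had signals of 467, 425, 416, 516 and 408 in Se-yeast birds, against 417, 499, 508 and 379 in control birds, a span of 1.36-fold. Its SD within diets exceeded that of only 12.8% of all genes, and its median correlation with the other members was -0.02. The next probe set of TOP2A did not give the same order of birds (r = -0.22) and was not flat. It ranged from 105 to 176 in Se-yeast birds and from 19.0 to 231 in control birds.

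NDC80, the microtubule binding protein of the kinetochore, had signals of 152, 256, 203, 181 and 250.0 in Se-yeast birds, against 175, 260.4, 245 and 158 in control birds. MKI67, the antigen Ki-67 that coats mitotic chromosomes, had signals of 422, 616, 527, 374 and 636 in Se-yeast birds, against 481, 867, 607 and 416 in control birds. Both were high in Se-yeast replicates 2 and 5 and in control replicates 2 and 3, and correlated with each other at 0.90. Their log2 fold changes were -0.00 for NDC80 (adjusted p = 1.0) and -0.17 for MKI67 (adjusted p = 0.999) in limma. CENPF, below the filter, ranged from 4.09 to 129 in Se-yeast birds and from 16.7 to 85.1 in control birds.

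The cytokinesis genes had higher mean levels in Se-yeast birds but did not move together from bird to bird. KIF20A, a kinesin of the central spindle, had signals of 299.9, 298, 236, 204 and 375 in Se-yeast birds, against 249, 149, 182 and 215 in control birds. Of the Se-yeast birds, 3 lay above every control bird, and the log2 fold change was 0.47 (95% interval 0.00 to 0.94, unadjusted p = 0.0485, adjusted p = 0.999 in limma). KIF23, the motor of the centralspindlin complex, ranged from 195 to 314 in Se-yeast birds and from 161 to 255 in control birds.

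RACGAP1, the partner of KIF23 in centralspindlin, had signals of 190.4, 135, 143, 152 and 118 in Se-yeast birds, against 115, 155, 37.7 and 139.9 in control birds. Its log2 fold change of 0.47 was 0.09 without control replicate 3, the lowest bird. PRC1, which bundles central spindle microtubules, had signals of 187, 349, 173, 154 and 150.3 in Se-yeast birds, against 147, 111, 258 and 159 in control birds. Its log2 fold change of 0.23 was 0.03 without Se-yeast replicate 2, its highest bird. Averaged over these 4 genes, the log2 level relative to the mean over 9 birds was 0.25, 0.43, 0.08, 0.01 and 0.02 in Se-yeast replicates 1 to 5, against -0.20, -0.22, -0.29 and -0.07 in control replicates 1 to 4. The median of their 6 pairwise correlations was -0.12 once the diet means were taken out. ECT2, below the filter, ranged from 21.9 to 98.4 in Se-yeast birds and from 16.7 to 55.5 in control birds.

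As a whole, the list moved together only loosely across birds. Averaged over all 33 members, the log2 level relative to each gene's mean was -0.17, 0.30, 0.04, -0.33 and 0.01 in Se-yeast replicates 1 to 5, against -0.03, 0.02, 0.24 and -0.08 in control replicates 1 to 4. Over the 528 pairs of members the median correlation was 0.22, with quartiles of -0.07 and 0.50 and 71.2% of pairs above 0. Over all 53887771 pairs of tested genes the median was 0.0036, with quartiles of -0.30 and 0.31 and 50.3% above 0. The median over members was 0.15 without either of Se-yeast replicates 2 and 4, up to 0.30 without Se-yeast replicate 5, and it was 0.26 with HINTW and 0.15 with MBD2 as a covariate.

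**Figure D4:**
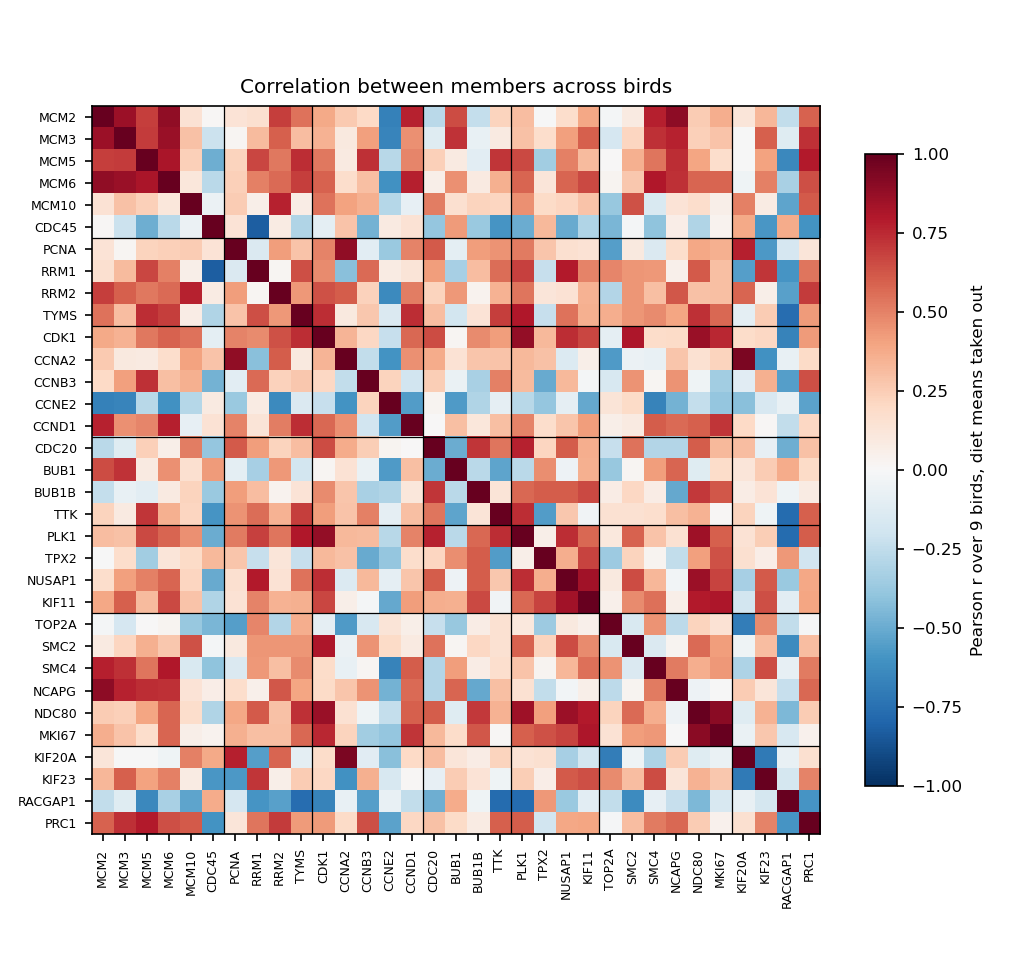
Pearson correlation between each pair of the 33 members over 9 birds, with the diet means taken out, genes in the same order as in the plot of levels by bird and lines between roles. The dark red block at the upper left is MCM2, MCM3, MCM5 and MCM6, with a median r of 0.84, and the blue rows of CDC45, CCNE2 and RACGAP1, with median r of -0.24, -0.29 and -0.25, run against most of the list.

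Correlation differed between the brighter and the dimmer members. The 17 members at or above a signal of 243.9 had a median correlation of 0.40 among themselves, where all genes at that level had -0.00065. The 16 dimmer members had a median of 0.087, where all dimmer genes had 0.048. The brighter members included MCM2, MCM3, MCM5 and MCM6, so brightness and role cannot be told apart here. The median correlation was 0.29 over the 180 pairs of a replication with a mitosis gene, 0.28 over 45 pairs of replication genes and 0.19 over 153 pairs of mitosis genes. Without Se-yeast replicate 2 these medians were 0.14, 0.30 and 0.13, and with the diet means kept in they were 0.17, 0.42 and 0.16. The 6 closest single pairs included 4 between roles, with 0.94 for CCNA2 with KIF20A, 0.90 for MCM2 with NCAPG, 0.89 for PCNA with CCNA2 and 0.88 for CDK1 with PLK1, and 2 within a role, with 0.90 for NDC80 with MKI67 and 0.89 for MCM2 with MCM6. PLK1, MCM6 and CDK1 had the highest median correlations with the rest of the list, at 0.51, 0.51 and 0.45.

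The array itself limits these values. A total of 10 members had a further probe set past the filter, and the correlation of the 2 brightest probe sets of a gene over the 9 birds ran from -0.24 for KIF11 to 0.97 for BUB1. RRM1 (0.84), CCND1 (0.76) and TPX2 (0.51) had fair to close repeats, whereas MCM6 (0.30), TTK (0.11), BUB1B (0.02) and KIF20A (-0.09) did not. The median over these members was 0.21, where the 4820 genes with such probe sets had 0.36.

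Each gene was then fitted on the level of a proliferation gene across birds, with diet in the model, so that the slope gives the log2 change per log2 unit of that gene. On TOP2A, 0 of 10381 genes passed the adjusted test with a positive slope, and at an unadjusted p under 0.05, 0 of 32 members did while 3.03% of all genes did (limma). Without an intensity trend the adjusted count was also 0 and 390 genes had a positive slope with an unadjusted p under 0.05, where 315 did with the trend. A positive slope on TOP2A was found for 15 of 32 members, and for 55% of all genes. Without Se-yeast replicate 1, 1 gene passed the adjusted test. The genes with the smallest p on TOP2A outside the list included NOTO, a homeobox transcription factor (slope 4.73), and PTGER4, a receptor of prostaglandin E2 (slope 3.83), with adjusted p of 0.774 and 0.999, and on the negative side ZW10, a kinetochore protein (slope -1.86, adjusted p = 0.999), and SELENOH, a selenoprotein of the nucleus (slope -2.72, adjusted p = 0.999).

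On CDK1, 28 of 32 members had a positive slope, where 49.9% of all genes did. Of the 32, 8 had a positive slope with an unadjusted p under 0.05, while 2.20% of all genes did (limma). Among all genes, 0 passed the adjusted test. The 8 were MCM6, RRM2, TYMS, PLK1, NUSAP1, SMC2, NDC80 and MKI67. On MCM5, 26 of 32 members had a positive slope, where 51.6% of all genes did. Of the 32, 6 had a positive slope with an unadjusted p under 0.05, while 3.30% of all genes did. Again 0 genes passed the adjusted test. The 6 were MCM2, MCM3, MCM6, TYMS, TTK and PRC1. With single birds left out, the count on CDK1 was 4 when Se-yeast replicate 2 or control replicate 3 was dropped, 5 for either replicate 4, 6 for Se-yeast replicates 1 and 3 and control replicate 2, 8 for control replicate 1 and 10 for Se-yeast replicate 5. The share of all genes moved as well, to 5.16% without Se-yeast replicate 5 and to between 1.79% and 2.56% without any other bird. The count on MCM5 was 3 when Se-yeast replicate 2 or control replicate 3 was dropped, where the share of all genes was 1.70% without Se-yeast replicate 2 and 2.36% without control replicate 3. It was 6 to 8 for the other birds, where that share lay between 2.88% and 4.92%.

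Further genes of the pathway, from a list of polymerases, origin and fork proteins, showed no diet call, and their median pairwise correlations were low. Of 41 tested genes of replication outside the members, 26 were lower and 15 higher in Se-yeast birds, with a median log2 fold change of -0.03 and 0 called. Of 39 further mitosis genes, 23 were lower and 16 higher, with a median of -0.06 and 0 called. Of 25 genes of G1 and its transcriptional control, 19 were lower and 6 higher, with a median of -0.11 and 0 called. At an unadjusted p under 0.05 the 3 lists had 1, 2 and 0 genes, in that order and all lower in Se-yeast birds. Their median pairwise correlations were 0.06, 0.10 and -0.00. On MCM5, where 51.6% of all genes had a positive slope, 31, 26 and 14 genes of the lists did. Of these, 7, 3 and 4 had an unadjusted p under 0.05 (limma), where 3.30% of all genes did. With a negative slope, 1, 1 and 0 genes did. On CDK1, where 49.9% of all genes had a positive slope, 28, 31 and 16 genes of the lists did. Of these, 3, 4 and 0 had an unadjusted p under 0.05, where 2.20% of all genes did. None passed the adjusted test with a positive slope on either gene.

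In those lists, of the genes with the smallest p on TOP2A, RFC4 and CDKN2B had the smallest p on MCM5. They were therefore examined beside the helicase genes, and neither slope on MCM5 passed the adjusted test. TACC3, of the mitosis list, had a negative slope on MCM5 of -0.41 (unadjusted p = 0.0455, adjusted p = 0.697, limma). RFC4, a subunit of the clamp loader, had signals of 944.5, 1464, 1375, 838 and 888.5 in Se-yeast birds, against 1303, 1103, 1182 and 1192 in control birds. Its slope on MCM5 was 0.33 (adjusted p = 0.66, limma). CDKN2B, an inhibitor of G1 cyclin-dependent kinases, had signals of 4180, 9755, 7317, 1947 and 2929 in Se-yeast birds, against 5007, 3513, 7140 and 6815 in control birds, with a slope on MCM5 of 0.84 (adjusted p = 0.657, limma). Both were highest in Se-yeast replicate 2 and low in Se-yeast replicates 4 and 5, the birds that were low for MCM2 and MCM3, but among control birds RFC4 was highest in replicate 1 and CDKN2B was nearly as high in replicate 4 as in replicate 3.

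Genes of antimicrobial peptides were among the closest to CDK1 outside the list, an observation made after the values were seen. AvBD1, an avian beta-defensin stored in the granules of heterophils, the chicken counterpart of neutrophils, had signals of 327.5, 5093, 882, 459.6 and 2464 in Se-yeast birds, against 974, 3647, 2727 and 1860.0 in control birds. AvBD7 had signals of 517, 5658, 1149, 585 and 2992 in Se-yeast birds, against 1016, 4003, 3258 and 838 in control birds. CATH1, a cathelicidin of the same cells, had signals of 487, 4793, 993, 468 and 3073 in Se-yeast birds, against 849, 3484, 1955 and 1512 in control birds. All 3 were high in Se-yeast replicates 2 and 5 and in control replicates 2 and 3, the birds in which NDC80 and MKI67 were high.

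**Figure D5:**
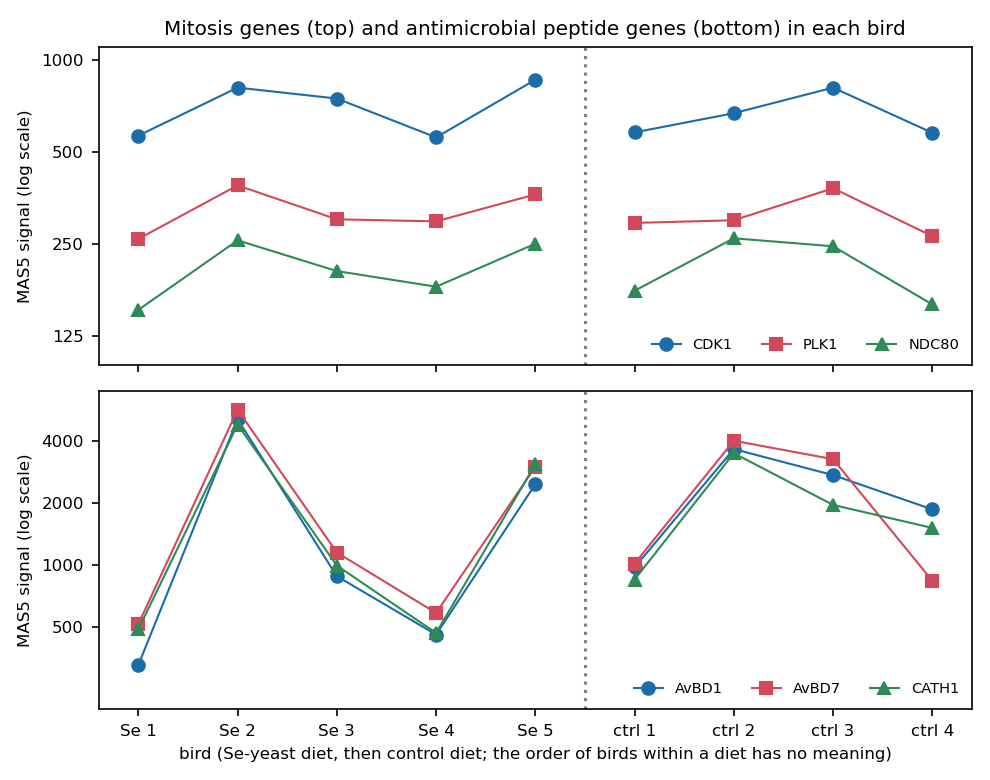
MAS5 signal on log axes in each bird for CDK1, PLK1 and NDC80 (top) and for AvBD1, AvBD7 and CATH1 (bottom), with Se-yeast birds left of the dotted line and control birds right of it; lines join the points of a gene only to guide the eye. Se-yeast replicates 2 and 5 and control replicate 3 are high in both panels, and AvBD1 spans 327.5 to 5093 while CDK1 spans 557 to 859.8.

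The slopes of these genes on CDK1 were 4.46 for AvBD7, 4.19 for AvBD1, 3.90 for CATH1, 4.06 for AvBD4 and 4.59 for AvBD6. Each had an adjusted p of 0.999 in limma, and they ranked 1, 3, 5, 10 and 12 by p among 10381 genes. Each slope on CDK1 stayed positive when each bird was left out in turn. These genes were picked for their small p on CDK1 in the same birds. Their ranks and the stable signs therefore restate that choice. On MCM5 the slopes of these 5 genes were 0.53 to 0.91, with unadjusted p of 0.121 to 0.359 (limma), and those of AvBD1, CATH1 and AvBD6 turned to -0.08, -0.29 and -0.29 without Se-yeast replicate 2. On CDK1, the slopes of AvBD3, AvBD8, AvBD9, AvBD10 and AvBD13 lay between -0.37 and 0.49. Of 14 heterophil markers, 6 matched a probe set and 3 passed the filter (AvBD1, LYZ and EXFABP), with a summed signal of 1681 to 6636 in Se-yeast birds and of 1878 to 5758 in control birds, and CATHB1, MMP9 and CSF3R did not pass. Averaged over those 3, the relative log2 level was -0.68, 0.65, -0.49, -0.59 and 0.39 in Se-yeast replicates 1 to 5, against -0.53, 0.81, 0.60 and -0.16 in control replicates 1 to 4. Among Se-yeast birds that average rested largely on AvBD1. LYZ, lysozyme, ranged only from 298.5 to 652 in Se-yeast birds and from 389 to 578 in control birds. EXFABP, a fatty acid binding protein of heterophils, had signals of 815, 963, 742, 1018 and 792 in Se-yeast birds, against 459, 1476, 1435 and 548 in control birds. It was highest among Se-yeast birds in replicate 4, where AvBD1 was low. Among control birds the average rested on EXFABP as well, which spanned 459 to 1476. The slopes on CDK1 were 0.62 for LYZ (unadjusted p = 0.201) and 0.90 for EXFABP (unadjusted p = 0.198), each with an adjusted p of 0.999 in limma. The part of heterophils or their precursors in the CDK1 pattern was not tested.

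Markers of other cells were set beside the levels in the same way. The 10 erythroid markers past the filter had a summed signal of 19116 to 50012 in Se-yeast birds and of 21732 to 73155 in control birds, and their relative log2 level was highest in Se-yeast replicate 1, at 0.44, and in control replicate 2, at 0.76. The 9 T cell markers summed to 4323 to 5733 in Se-yeast birds and 3387 to 6161 in control birds, and the 12 macrophage markers summed to 100526 to 118226 in Se-yeast birds and 79700 to 105978 in control birds. In Se-yeast replicate 2 and control replicate 3, the birds highest for the helicase genes, the relative level was -0.33 and 0.14 for erythroid markers. In the same order it was -0.04 and 0.07 for T cell, 0.16 and 0.18 for B cell and 0.09 and 0.03 for macrophage markers. It was 0.22 and 0.20 for bile duct, 0.04 and 0.005 for endothelial and 0.05 and 0.03 for stellate and stromal markers. Hepatocyte markers had 0.155 and -0.06, and heterophil markers had 0.65 and 0.60. Heterophil markers and helicase genes had levels of opposite sign in Se-yeast replicates 3 and 5 and control replicate 1. The other birds had the same sign for both. These levels, markers first, were -0.49 and 0.26 in Se-yeast replicate 3 and 0.39 and -0.77 in Se-yeast replicate 5. In control replicate 1 they were -0.53 and 0.38. The part of any of these cells in the helicase levels was not tested.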

How the data were processed

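Liver RNA of 5 Se-yeast and 4 control broilers was hybridised to a 1-colour Affymetrix chicken array, 1 array per bird. The authors deposited linear intensities of probe sets, made with MAS5 per the submitters' processing notes (version and genome build not given in the sources used here). Each array had the same mean of 499.9 between its 2nd and 98th percentiles, so levels are relative to the rest of the array. No detection calls were used here, and precision is limited by the number of arrays.

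There were 38535 probe sets. After 96 array controls were left out, 27168 had 1 gene symbol, 177 several and 11094 none here. The value 16 was added before log2 was taken, which pulls differences of dim probe sets towards 0, and 23063 probe sets at or above the 40th percentile of the mean over all birds were tested with limma 3.58.1 in R 4.3.3 (lmFit, eBayes with an intensity trend, two-sided, Benjamini-Hochberg over all, threshold 0.05). Genes were taken by their brightest tested probe set. Probe sets ending in _s_at or _x_at can also read related transcripts.

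Fits on the level of TOP2A, CDK1 or MCM5 had diet as a covariate, and correlations were taken after removing the diet means. Named genes are all members, the genes outside the list with the smallest p on TOP2A in each direction, and the pathway genes with the smallest p on it; CDK1-like genes were added after their values were seen. RefSeq names come from the GRCg7b table. The members and all lists were chosen with earlier results of these data known. The fits were also run on simulated data with independent noise and a fitted gene that varied more than TOP2A or CDK1 did here. That run does not show what the fits on TOP2A and CDK1 could detect in these birds. Replicate numbers were not found to pair birds: the correlation of same-numbered birds' deviations from their group means was -0.11, 0.04, 0.02 and -0.00 for numbers 1 to 4. The labels call the samples biological replicates. Alternatives covered the pseudocount, the filter, scaling, probe set choice, each bird left out, the replicate block, W-linked covariates and the intensity trend.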

Additional observations from a re-analysis of the deposited data

Results flagged for a closer look

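In 2 of 66 groups of 4 or 5 birds checked, 1 for each diet of each member, a single bird lay far from the others by Dixon's criterion, and chance flags about 5% of groups. PRC1 had a signal of 349 in Se-yeast replicate 2, where the nearest Se-yeast bird had 187 and the lowest 150.3, so that the gap made up 0.816 of the range. PCNA had a signal of 5976 in control replicate 1, where the other 3 control birds lay between 4711 and 4769.5, a gap of 0.954 of the range.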

How the results depend on the processing

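The count of called members was 0 and the count of members called on TOP2A was 0 under all alternatives run. The number of all probe sets called for diet, 6, was 3 with the replicate block (on 8 birds and on 9), 3 without an intensity trend and 3 with HINTW as a covariate (chosen after seeing the data), and ran from 3 to 7 when each bird was left out, with 3 without control replicate 3 or without Se-yeast replicate 1, 3 or 4. The fit on TOP2A called 0 to 1 genes with a positive slope when each bird was left out, the 1 without Se-yeast replicate 1, and 1 gene with a negative slope without Se-yeast replicate 5. With the replicate block the median log2 fold change of the members was -0.08 and the median pairwise correlation 0.20, and the fit on TOP2A called 2 genes with a negative slope, where it called 0 without the block; it called no member. Of 682 values of single members under an alternative, 681 moved by less than the gene's SD between birds within diets. Leaving out 1 bird cannot move a fold change that far, so those values could only count as unmoved. MCM2 at 0.08 in place of -0.47 and BUB1 at -0.20 in place of -0.78, without Se-yeast replicates 4 and 5, also counted as unmoved. The 1 that moved more was TOP2A, at 0.20 with the mean of all its probe sets. Its brightest probe set had -0.01 and the next had 0.42. Single dim signals have no detection call, and TTK and MCM10, which hold some, had the widest intervals of the 33 members.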

Other observations

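The genes closest to BUB1 over the 9 birds were not mitotic genes. With r as a description over 9 birds and diet means kept in, they were led by MRPS31, a mitochondrial ribosomal protein (0.96), and CHPF, a chondroitin polymerising factor (0.95), and included GPAM, which starts triglyceride synthesis (0.95), and ERG28, a scaffold of sterol synthesis (0.94). GPAM had signals of 4095, 4211, 3340, 1573 and 2649 in Se-yeast birds, against 4051, 4568, 3120 and 5208 in control birds. ERG28 had signals of 12245, 13211, 11027, 6371 and 7110.0 in Se-yeast birds, against 12584, 13400.0, 13145 and 14343 in control birds. Both were lowest in Se-yeast replicates 4 and 5, as BUB1 was. Among the members, BUB1 had an r of 0.81 with MCM3 and of 0.71 with MCM2, against -0.67 with CDC20 and -0.62 with TTK.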
